A study of Mus musculus with 4 samples.

Results

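The 10 genes described here encode chains of the receptors through which myeloid cells respond to growth factors, interleukins and interferons. They were chosen by gene name as chains of the receptors for G-CSF (*Csf3r*), GM-CSF (*Csf2ra* and *Csf2rb*) and IL-3 (*Csf2rb2*, a close relative of *Csf2rb*), IL-6 (*Il6ra* and *Il6st*), IL-4 (*Il4ra*), IL-10 (*Il10ra*), interferon-γ (*Ifngr1*) and type I interferon (*Ifnar1*), and all 10 were present among the 25655 genes of the data. The study asked how the inhibitory receptor CD300a shapes the neutrophils that enter the heart after myocardial ischemia and reperfusion (MI/R). Male WT mice and *Cd300a-/-* mice, which lack CD300a, both on the C57BL/6 background and 8 to 12 weeks old, underwent 60 minutes of coronary occlusion followed by reperfusion. On day 3, CD45.2+CD11b+Ly6G+ cells were sorted from the hearts into SiglecF hi and SiglecF lo neutrophils (called SiglecF-positive and SiglecF-negative in the labels) and analysed by poly(A) RNA-Seq. This gave 4 libraries, WT SiglecF lo, *Cd300a-/-* SiglecF lo, WT SiglecF hi and *Cd300a-/-* SiglecF hi, each made from the pooled cells of 8 hearts. With 1 library per group, single mice are hidden within their pool, no difference has a replicate check, and no test between conditions was made.

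Cytokine receptors of this family have no kinase of their own. Ligand binding brings the chains together, the JAK kinases bound to them phosphorylate STAT transcription factors, and these move to the nucleus. G-CSF and GM-CSF drive the production, release and survival of neutrophils, IL-6 acts largely through STAT3, IL-4 through STAT6 and IL-10 through STAT3.

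Gene counts totalled 9631901 for WT SiglecF lo, 10988619 for *Cd300a-/-* SiglecF lo, 19278243 for WT SiglecF hi and 17632989 for *Cd300a-/-* SiglecF hi cells. Levels are given as TPM, the transcripts of a gene per 1000000, which corrects for gene length and depth and so allows genes to be compared within a library. Between the subsets TPM was shifted as a whole, as described below, so orders of libraries across the subsets can depend on the scaling. Where such an order of a receptor gene changed, TMM-scaled CPM is given too. This is the counts per 1000000 divided by the TMM scaling factor of each library. Differences are log2((TPM + 1) ratio), in which the added 1 shrinks the ratios of low genes, over the 6523 genes whose TPM averaged over 10, and a gene was counted as higher or lower past 0.5. All 10 receptor genes passed this limit, *Il6st* as the lowest of them. Brackets hold 95% counting intervals, which leave out all variation other than that of counting and assume that each count is a separate molecule. Gene positions are those of the data, on GRCm39.

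The labels were checked first. *Cd300a* had 3024 counts in WT SiglecF lo and 6640 counts in WT SiglecF hi neutrophils, and 28 and 27 counts in the *Cd300a-/-* SiglecF lo and SiglecF hi neutrophils. The SiglecF lo cells had 11.3 TPM (WT) and 15.3 TPM (*Cd300a-/-*) of *Siglecf*, and the SiglecF hi cells 354 TPM (WT) and 405 TPM (*Cd300a-/-*). Genotype and SiglecF thus followed the labels in each library. All 8 neutrophil markers listed, *Csf3r* among them, were above 10 TPM in each library, with summed levels of 155853.5 TPM (WT) and 204962 TPM (*Cd300a-/-*) in SiglecF lo cells, and 28291 TPM (WT) and 33474 TPM (*Cd300a-/-*) in SiglecF hi cells, and *S100a9* as the most abundant. *Ly6g*, which encodes the sorting marker, reached 330.4 TPM (WT) and 889 TPM (*Cd300a-/-*) among SiglecF lo cells but only 11.1 TPM (WT) and 41.9 TPM (*Cd300a-/-*) among SiglecF hi cells. The 10 macrophage markers summed to 5923 TPM (WT) and 5197.5 TPM (*Cd300a-/-*) in SiglecF lo cells, and 16612 TPM (WT) and 15349 TPM (*Cd300a-/-*) in SiglecF hi neutrophils, led by *Apoe*. The SiglecF hi libraries therefore held less RNA of neutrophil markers and more of macrophage markers than the SiglecF lo libraries. Of the 8 eosinophil markers, *Epx* had 0 counts in each library and *Ear2* gave nearly all of the summed 172.7 TPM (WT) and 87.8 TPM (*Cd300a-/-*) in SiglecF lo cells, and 119 TPM (WT) and 120.1 TPM (*Cd300a-/-*) in SiglecF hi neutrophils.

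*Csf3r* was the most abundant of the receptor genes in each library and *Csf2ra* came next, while *Il6ra* and *Il6st* were the lowest. *Csf3r* ranked 91st by TPM among all genes of the WT SiglecF lo library, 68th for *Cd300a-/-* SiglecF lo, 145th for WT SiglecF hi and 135th for *Cd300a-/-* SiglecF hi cells. The 10 genes summed to 2546 TPM (WT) and 3268 TPM (*Cd300a-/-*) in SiglecF lo cells, and 2345 TPM (WT) and 2579.6 TPM (*Cd300a-/-*) in SiglecF hi cells, and *Csf3r* made up 56.7%, 53.5%, 45.6% and 43.0% of that sum. The sum was thus highest in *Cd300a-/-* SiglecF lo neutrophils, and the share of *Csf3r* was higher in both SiglecF lo libraries than in both SiglecF hi libraries. *Ifngr1* came after these in every library but *Cd300a-/-* SiglecF lo, where *Csf2rb* was above it. Neighbours in the order were separated beyond their counting intervals in each library, except *Il10ra* and *Il4ra* in both SiglecF lo libraries. There *Il10ra* was at 101 TPM and *Il4ra* at 97.5 TPM in WT, and the order was turned in *Cd300a-/-* neutrophils, at 123 and 131 TPM.

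**Figure D1:**
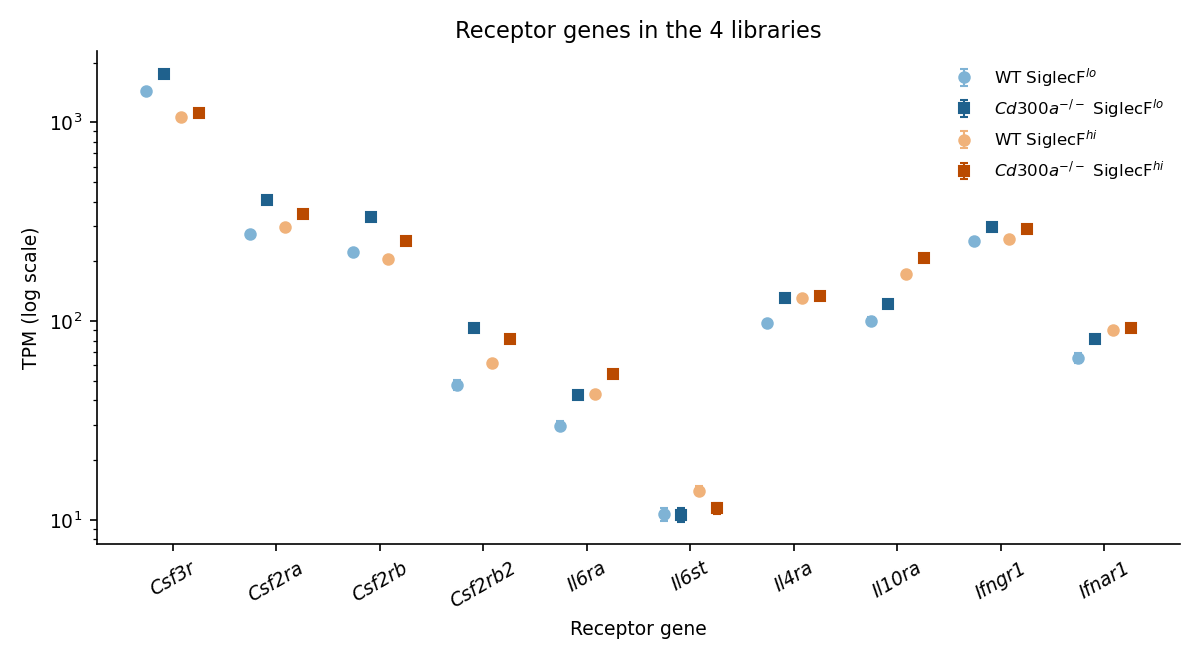
TPM on a log axis of the 10 receptor genes in the 4 libraries, 1 point per library, with 95% counting intervals as bars that are often smaller than the points. *Csf3r*, between 1069 and 1749.6 TPM, lies above all other receptor genes, and *Il6st*, between 10.6 and 14.1 TPM, lies below them.

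*Csf3r* (ENSMUSG00000028859, chromosome 4 from 125918343 to 125938233) encodes the G-CSF receptor, a chain that pairs with itself. It was at 1443 TPM (WT) and 1749.6 TPM (*Cd300a-/-*) in SiglecF lo cells, and 1069 TPM (WT) and 1109 TPM (*Cd300a-/-*) in SiglecF hi neutrophils. Both SiglecF lo libraries were thus above both SiglecF hi libraries, and *Cd300a-/-* SiglecF lo neutrophils were the highest. The log2 ratio of *Cd300a-/-* to WT was 0.28 (0.25 to 0.30) in SiglecF lo and 0.05 (0.03 to 0.08) in SiglecF hi cells, within 0.5 in both subsets.

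The GM-CSF receptor joins an alpha chain that binds the cytokine, encoded by *Csf2ra* (ENSMUSG00000059326, chromosome 19 from 61212395 to 61216867), with a beta chain that signals, encoded by *Csf2rb* (ENSMUSG00000071713, chromosome 15 from 78209952 to 78238047). *Csf2ra* was at 275 TPM (WT) and 406 TPM (*Cd300a-/-*) in SiglecF lo cells, and 298 TPM (WT) and 345 TPM (*Cd300a-/-*) in SiglecF hi neutrophils. *Csf2rb* was at 222.5 TPM (WT) and 335 TPM (*Cd300a-/-*) in SiglecF lo cells, and 206 TPM (WT) and 252 TPM (*Cd300a-/-*) in SiglecF hi neutrophils. In TPM both chains were highest in *Cd300a-/-* SiglecF lo neutrophils, *Cd300a-/-* SiglecF hi neutrophils came next, and the WT libraries were the lowest. In TMM-scaled CPM, WT SiglecF lo neutrophils came next instead, at 299 for *Csf2ra* and 681 for *Csf2rb*. *Cd300a-/-* SiglecF hi neutrophils were there at 255 and 524. In SiglecF lo neutrophils *Csf2ra* was 1.48-fold higher in *Cd300a-/-* than in WT, a log2 ratio of 0.56 (0.49 to 0.63). The ratio of *Csf2rb* there was 0.59 (0.54 to 0.64). Both passed 0.5, although the interval of *Csf2ra* reached just below it. In SiglecF hi neutrophils the ratios were smaller, at 0.21 (0.15 to 0.27) for *Csf2ra* and 0.29 (0.25 to 0.33) for *Csf2rb*.

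*Csf2rb2* (ENSMUSG00000071714, chromosome 15 from 78166707 to 78189921) encodes the additional beta chain of mice, which serves the IL-3 receptor. It was at 47.9 TPM (WT) and 92.1 TPM (*Cd300a-/-*) in SiglecF lo cells, and 61.4 TPM (WT) and 81.9 TPM (*Cd300a-/-*) in SiglecF hi neutrophils. Both *Cd300a-/-* libraries lay above both WT libraries. Its log2 ratio of *Cd300a-/-* to WT was 0.93 (0.83 to 1.03) in SiglecF lo neutrophils, a 1.90-fold difference and the largest of the 10 genes, and 0.41 (0.33 to 0.48) in SiglecF hi neutrophils. *Csf2rb2* was also higher relative to *Csf2rb* in *Cd300a-/-* neutrophils. The TPM ratio of *Csf2rb2* to *Csf2rb* was 0.215 (0.202 to 0.229) in WT SiglecF lo, 0.275 (0.263 to 0.287) in *Cd300a-/-* SiglecF lo, 0.297 (0.285 to 0.311) in WT SiglecF hi and 0.325 (0.312 to 0.338) in *Cd300a-/-* SiglecF hi neutrophils. The genes for the beta chains are near copies that lie 20030 bases apart with no other gene of the data between them, and 28.0% of the stretches of 31 bases in the longest *Csf2rb* transcript of GENCODE M21 also occur in *Csf2rb2* transcripts. At 75 bases, the number of sequencing cycles, the share was 10.7%. How the reads of such stretches were divided is not given in the sources used here, so the split of counts between *Csf2rb* and *Csf2rb2* is uncertain.

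Within the GM-CSF receptor, the TPM ratio of the beta chain *Csf2rb* to the alpha chain *Csf2ra* was 0.810 (0.774 to 0.848) in WT SiglecF lo and 0.825 (0.796 to 0.855) in *Cd300a-/-* SiglecF lo neutrophils. It was 0.694 (0.670 to 0.718) in WT SiglecF hi and 0.732 (0.708 to 0.757) in *Cd300a-/-* SiglecF hi neutrophils. The chains thus differed between genotypes by nearly the same factor in SiglecF lo neutrophils, and relatively more alpha chain RNA was present in SiglecF hi neutrophils. The balance of G-CSF to GM-CSF receptor RNA was lower in *Cd300a-/-* neutrophils of each subset. The TPM ratio of *Csf3r* to *Csf2ra* was 5.25 (5.05 to 5.47) in WT SiglecF lo, 4.30 (4.17 to 4.44) in *Cd300a-/-* SiglecF lo, 3.59 (3.48 to 3.70) in WT SiglecF hi and 3.22 (3.12 to 3.31) in *Cd300a-/-* SiglecF hi neutrophils.

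Promoters are shown for *Csf3r* and for the alpha and beta chain genes that were higher together in *Cd300a-/-* SiglecF lo neutrophils, as far as RefSeq promoters were matched. Of the 10 receptor genes 8 were matched by symbol, all but *Csf2rb* and *Il10ra*, and each sequence holds 300 bases around the annotated start on GRCm38.p6, another build than that of the data. The windows are chr4:126024409-126024708 on the plus strand for *Csf3r*, chr19:61228369-61228668 on the minus strand for *Csf2ra* and chr15:78305672-78305971 on the minus strand for *Csf2rb2*. They are printed 5′ to 3′ on the strand of the gene, and capitals mark matches on either strand to GAGGAA, the core letters bound by the myeloid factor PU.1, or to TTCNNNGAA, the form of STAT sites.
Csf3r: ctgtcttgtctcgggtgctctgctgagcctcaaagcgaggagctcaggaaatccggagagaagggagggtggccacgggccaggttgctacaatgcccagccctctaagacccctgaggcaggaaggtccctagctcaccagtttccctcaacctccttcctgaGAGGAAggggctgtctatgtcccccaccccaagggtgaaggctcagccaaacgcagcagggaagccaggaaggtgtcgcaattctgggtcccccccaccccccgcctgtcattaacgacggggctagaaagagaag
Csf2ra: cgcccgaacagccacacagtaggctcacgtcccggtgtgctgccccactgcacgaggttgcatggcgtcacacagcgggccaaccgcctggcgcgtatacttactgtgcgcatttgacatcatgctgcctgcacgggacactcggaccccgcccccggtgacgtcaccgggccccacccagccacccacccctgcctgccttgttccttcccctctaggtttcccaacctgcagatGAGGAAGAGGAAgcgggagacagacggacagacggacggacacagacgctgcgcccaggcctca
Csf2rb2: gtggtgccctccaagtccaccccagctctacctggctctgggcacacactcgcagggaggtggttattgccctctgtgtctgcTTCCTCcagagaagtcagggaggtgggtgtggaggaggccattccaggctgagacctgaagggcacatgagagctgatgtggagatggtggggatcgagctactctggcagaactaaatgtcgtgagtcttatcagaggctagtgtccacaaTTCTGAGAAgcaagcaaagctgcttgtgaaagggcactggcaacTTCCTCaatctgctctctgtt
In *Csf2ra*, GAGGAA occurred at -14 and again directly after it at -8 from the start, and in *Csf3r* once at -86. *Csf2rb2* held its reverse complement TTCCTC at -167 and 30, and TTCTGAGAA, which matches TTCNNNGAA on both strands, at -15. Among the 8 matched promoters, GAGGAA was found in 5, beside 28.3% of all 32851 promoters of this length, and TTCNNNGAA in 2 (*Csf2rb2* and *Ifnar1*), beside 8.30%. The letters of interferon response elements, GAAA, 2 free bases and GAAA again (3.44% of all promoters), and TTNNGNAAT of C/EBP sites (11.5%) were found in 0 of the 8. A match describes letters in the window and not a bound site.

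Among the interleukin receptors, *Il6ra* (ENSMUSG00000027947, chromosome 3 from 89771366 to 89820503) encodes the chain that binds IL-6 and *Il6st* (ENSMUSG00000021756, chromosome 13 from 112600604 to 112646620) encodes gp130, which signals for IL-6 and its relatives. *Il6ra* was at 29.9 TPM (WT) and 42.5 TPM (*Cd300a-/-*) in SiglecF lo cells, and 43.3 TPM (WT) and 54.6 TPM (*Cd300a-/-*) in SiglecF hi neutrophils. *Il6st* was at 10.7 TPM (WT) and 10.6 TPM (*Cd300a-/-*) in SiglecF lo cells, and 14.1 TPM (WT) and 11.5 TPM (*Cd300a-/-*) in SiglecF hi neutrophils. In TPM, *Il6ra* was thus lowest in WT SiglecF lo and highest in *Cd300a-/-* SiglecF hi neutrophils. *Il6st* was highest in WT SiglecF hi neutrophils in TPM and differed little among the other libraries. In TMM-scaled CPM, *Il6ra* was highest in *Cd300a-/-* SiglecF lo neutrophils, at 219, beside 188 in *Cd300a-/-* SiglecF hi neutrophils. *Il6st* was there at 69.5 (WT) and 70.3 (*Cd300a-/-*) in SiglecF lo cells, and lower, at 62.9 (WT) and 50.8 (*Cd300a-/-*), in SiglecF hi cells. The log2 ratio of *Il6ra* in SiglecF lo neutrophils was 0.49 (0.40 to 0.59), so that the threshold lay inside its interval, and in SiglecF hi neutrophils it was 0.33 (0.26 to 0.39). That of *Il6st* was -0.01 (-0.15 to 0.14) in SiglecF lo and -0.27 (-0.38 to -0.16) in SiglecF hi cells. The chains of the IL-6 receptor therefore differed from each other. The TPM ratio of *Il6ra* to *Il6st* was 2.80 (2.54 to 3.08) in WT SiglecF lo, 3.99 (3.66 to 4.36) in *Cd300a-/-* SiglecF lo, 3.08 (2.89 to 3.28) in WT SiglecF hi and 4.75 (4.43 to 5.09) in *Cd300a-/-* SiglecF hi neutrophils, higher in *Cd300a-/-* than in WT neutrophils of each subset beyond counting error.

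*Il4ra* (ENSMUSG00000030748, chromosome 7 from 125151292 to 125178646) encodes the chain that binds IL-4 and also takes part in the IL-13 receptor. It was at 97.5 TPM (WT) and 131 TPM (*Cd300a-/-*) in SiglecF lo cells, and 130.3 TPM (WT) and 134 TPM (*Cd300a-/-*) in SiglecF hi neutrophils. In TPM, WT SiglecF lo neutrophils were low and the other libraries were close together. In TMM-scaled CPM, *Cd300a-/-* SiglecF lo neutrophils stood out instead, at 422, beside 310 in WT SiglecF lo neutrophils. The SiglecF hi neutrophils were there at 284.5 (WT) and 289 (*Cd300a-/-*). The log2 ratio of *Cd300a-/-* to WT was 0.42 (0.35 to 0.49) in SiglecF lo and 0.04 (-0.01 to 0.09) in SiglecF hi cells, where no difference was detectable at this depth.

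*Il10ra* (ENSMUSG00000032089, chromosome 9 from 45165135 to 45180447) encodes the chain that binds the anti-inflammatory cytokine IL-10. It was at 101 TPM (WT) and 123 TPM (*Cd300a-/-*) in SiglecF lo cells, and 173 TPM (WT) and 207.5 TPM (*Cd300a-/-*) in SiglecF hi neutrophils. In TPM, both SiglecF hi libraries were above both SiglecF lo libraries, the reverse of *Csf3r*. In TMM-scaled CPM, *Cd300a-/-* SiglecF lo neutrophils, at 256, lay above WT SiglecF hi neutrophils, at 243. The ratio of *Cd300a-/-* to WT was alike in the subsets, at 0.28 (0.19 to 0.37) in SiglecF lo and 0.26 (0.21 to 0.32) in SiglecF hi cells.

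Of the interferon receptor genes, *Ifngr1* (ENSMUSG00000020009, chromosome 10 from 19467697 to 19485977) encodes the chain that binds interferon-γ. It was at 254 TPM (WT) and 297 TPM (*Cd300a-/-*) in SiglecF lo cells, and 260.1 TPM (WT) and 292.5 TPM (*Cd300a-/-*) in SiglecF hi neutrophils, the narrowest range in TPM of the abundant chains. In TPM, both *Cd300a-/-* libraries lay above both WT libraries. In TMM-scaled CPM, *Cd300a-/-* SiglecF hi neutrophils, at 246, lay below WT SiglecF lo neutrophils, at 314. The log2 ratio of *Cd300a-/-* to WT was 0.22 (0.15 to 0.30) in SiglecF lo and 0.17 (0.11 to 0.23) in SiglecF hi cells. *Ifnar1* (ENSMUSG00000022967, chromosome 16 from 91282126 to 91304329) encodes a chain of the type I interferon receptor. It was at 65.5 TPM (WT) and 81.5 TPM (*Cd300a-/-*) in SiglecF lo cells, and 89.9 TPM (WT) and 92.1 TPM (*Cd300a-/-*) in SiglecF hi neutrophils. In TPM, WT SiglecF lo neutrophils were the lowest, and the SiglecF hi libraries were close together. In TMM-scaled CPM the SiglecF hi libraries were the lowest, at 144 (WT) and 145 (*Cd300a-/-*), beside 152 in WT SiglecF lo neutrophils. The ratio of *Ifnar1* was 0.31 (0.21 to 0.41) in SiglecF lo and 0.03 (-0.04 to 0.11) in SiglecF hi cells, and relative to the median of all genes the SiglecF hi ratio was -0.0041.

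Over the group, 3 of the 10 receptor genes were higher past 0.5 in *Cd300a-/-* SiglecF lo cells than in their WT counterparts, beside 16.4% of all 6523 genes tested, and these were *Csf2ra* and *Csf2rb* of the GM-CSF receptor and the additional beta chain gene *Csf2rb2*. None was lower, beside 19.9% of all genes tested. The ratio was above 0 for 9 of the 10, beside 48.8% of all genes tested, with *Il6st* as the exception. The median of the 10 was 0.37 and that of all genes tested was -0.02. Among SiglecF hi cells, 0 of the 10 were higher past 0.5, beside 3.31% of all genes tested, and 0 were lower, beside 3.46%. There the median of the 10 was 0.19 and that of all genes tested was 0.04, and again 9 of the 10 lay above 0, beside 56.4% of all genes tested. In bulk libraries, fewer cells of a type and less RNA per cell cannot be told apart.

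**Figure D2:**
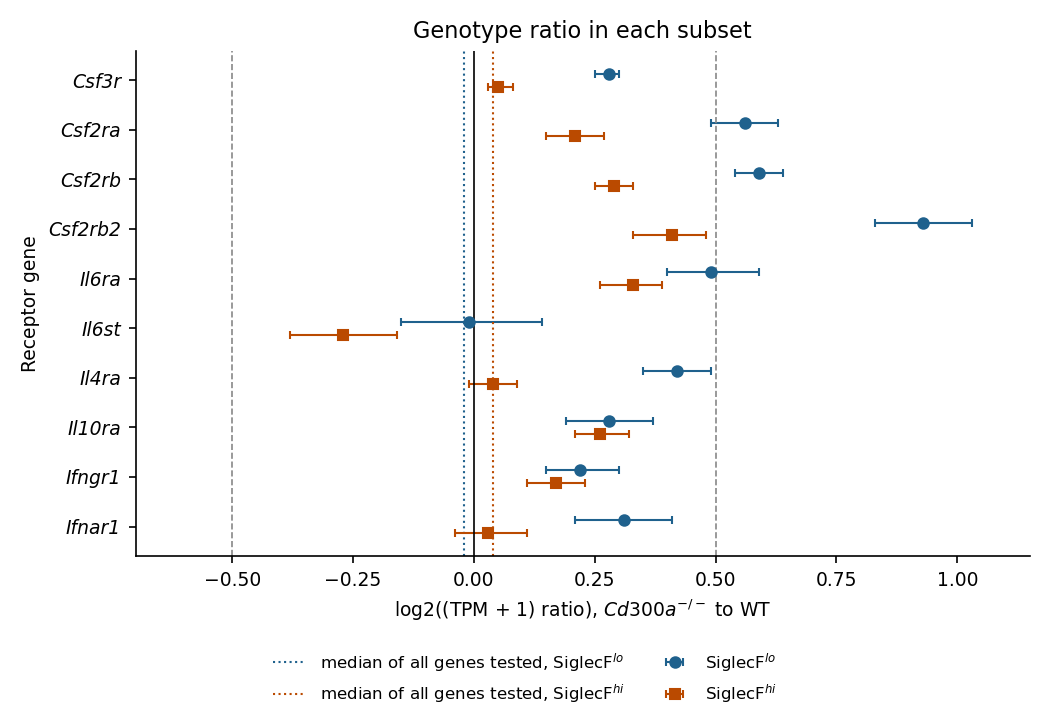
Log2((TPM + 1) ratio) of *Cd300a-/-* to WT for each receptor gene in SiglecF lo (circles) and SiglecF hi neutrophils (squares), with 95% counting intervals as bars. Dashed lines mark 0.5 in either direction and dotted lines the medians of all genes tested, -0.02 and 0.04, and past the upper dashed line lie only *Csf2ra*, *Csf2rb* and *Csf2rb2*, all in SiglecF lo neutrophils.

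The ratio of *Cd300a-/-* to WT was larger in SiglecF lo than in SiglecF hi neutrophils for each of the 10 receptor genes, beside 46% of all genes tested. The counting interval of this difference lay above 0 for 8 of the 10, beside 31.3% of all genes tested. The exceptions were *Il10ra*, with a difference of 0.02 (-0.08 to 0.12), and *Ifngr1*, with 0.06 (-0.04 to 0.15). *Csf2rb2* had the largest difference, 0.52 (0.40 to 0.64), followed by *Il4ra* with 0.38 (0.29 to 0.46) and *Csf2ra* with 0.35 (0.26 to 0.44). The median difference of the 10 was 0.27, and that of all genes tested was -0.05. With each ratio taken relative to the median of all genes tested, the interval lay above 0 for 9 of the 10, all but *Il10ra*. Whether the genotype ratio differed between the subsets beyond the variation between mice was not tested.

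Other RNA differed between the SiglecF lo libraries too. Of 11 genes for neutrophil granules and maturation, 7 were higher in *Cd300a-/-* SiglecF lo neutrophils (median 0.99), among them *Cd177* (2.36) and *Mmp8* (1.41), and their summed level was 20314.0 TPM (WT) and 40761 TPM (*Cd300a-/-*) in SiglecF lo cells, and 3312 TPM (WT) and 5290.6 TPM (*Cd300a-/-*) in SiglecF hi neutrophils. *Retnlg*, the most abundant of them, reached 12110.1 TPM (WT) and 24002 TPM (*Cd300a-/-*) among SiglecF lo cells. In SiglecF hi neutrophils 7 of the 11 were also higher in *Cd300a-/-* (median 1.20), with the largest ratio for *Ngp*, with 139 counts (WT) and 2812 counts (*Cd300a-/-*), and then *Camp* (2.94). Of the 8 neutrophil markers, 4 were higher in *Cd300a-/-* SiglecF lo and 2 in *Cd300a-/-* SiglecF hi neutrophils, with medians of 0.51 and 0.31. Endothelial markers moved the other way in SiglecF lo neutrophils, where 6 of the 7 tested were lower in *Cd300a-/-* (median -1.64), with *Pecam1* at -1.82 and *Fabp4* at -1.81. They summed to 596 TPM (WT) and 182.5 TPM (*Cd300a-/-*) in SiglecF lo cells, and 345 TPM (WT) and 458 TPM (*Cd300a-/-*) in SiglecF hi neutrophils, mostly *Fabp4*. The part of granule, neutrophil marker and endothelial RNA in the receptor ratios was not tested.

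Between the subsets, TPM was shifted as a whole. The 10 most abundant genes took 22.8% and 26.7% of TPM in WT and *Cd300a-/-* SiglecF lo neutrophils but 12.3% and 11.8% in the SiglecF hi neutrophils. How much of the shift goes with these shares was not tested. Over all genes tested, the median of the log2 ratios between SiglecF hi and SiglecF lo cells was 0.53 in WT and 0.61 in *Cd300a-/-* neutrophils, and ratios are therefore given relative to this median (centred) beside those of TPM. In TPM, 2 of the 10 receptor genes were higher in WT SiglecF hi than in WT SiglecF lo neutrophils, *Il10ra* and *Il6ra*, beside 51.9% of all genes tested, and 0 were lower, beside 7.47%. After centring, 0 were higher, beside 19.3% of all genes tested, and 2 were lower, *Csf3r* and *Csf2rb*, beside 20.9%. The median of the 10 was 0.36 in TPM and -0.17 after centring. In *Cd300a-/-* neutrophils 1 of the 10 was higher in TPM in SiglecF hi neutrophils (*Il10ra*), beside 56.6% of all genes tested, and 1 was lower (*Csf3r*), beside 7.97%. After centring, 0 were higher, beside 21.2%, and 7 were lower, beside 23.6% of all genes tested. The 7 were *Csf3r*, *Csf2ra*, *Csf2rb*, *Csf2rb2*, *Il6st*, *Il4ra* and *Ifngr1*, and the median of the 10 was -0.61 after centring and 0.01 in TPM.

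*Csf3r* had the lowest subset ratio of the 10 in both genotypes. In WT its log2 ratio between SiglecF hi and SiglecF lo cells was -0.43 (-0.46 to -0.41) in TPM and -0.96 (-0.98 to -0.94) after centring. In *Cd300a-/-* neutrophils the values were -0.66 (-0.68 to -0.64) and -1.27 (-1.29 to -1.25). At the other end, *Il10ra* was the only receptor gene above the median of all genes tested in both genotypes. It had a ratio of 0.77 (0.69 to 0.85) in WT and 0.75 (0.68 to 0.82) in *Cd300a-/-* neutrophils, which was 0.24 (0.17 to 0.32) and 0.14 (0.07 to 0.21) after centring. The genes *Csf2ra*, *Csf2rb* and *Csf2rb2* lay between them. *Csf2rb* had -0.11 (-0.15 to -0.06) in WT and -0.41 (-0.45 to -0.37) in *Cd300a-/-* neutrophils, or -0.63 and -1.02 after centring. For *Csf2ra* the sign depended on genotype and scale, with 0.12 (0.05 to 0.18) in WT and -0.24 (-0.30 to -0.18) in *Cd300a-/-* neutrophils, but -0.41 and -0.85 after centring. *Csf2rb2* likewise had 0.35 (0.25 to 0.45) in WT and -0.17 (-0.24 to -0.09) in *Cd300a-/-* neutrophils, and -0.18 and -0.78 after centring.

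**Figure D3:**
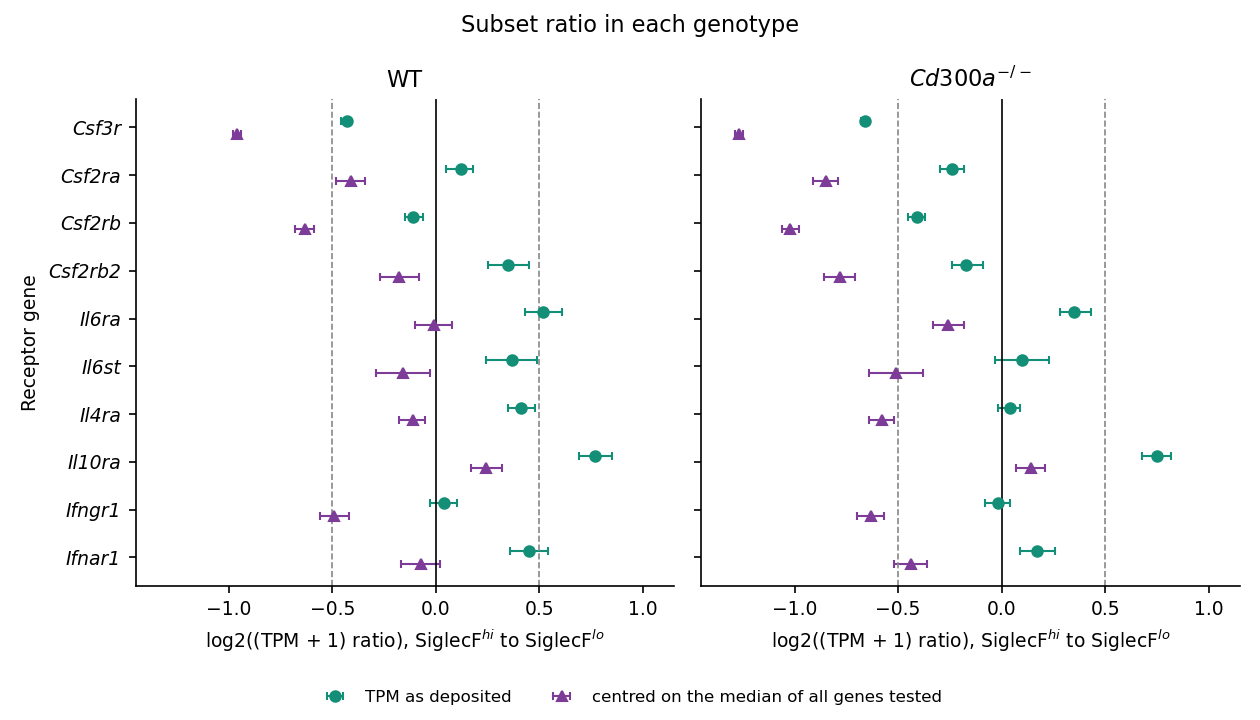
Log2((TPM + 1) ratio) of SiglecF hi to SiglecF lo neutrophils for each receptor gene in WT (left) and *Cd300a-/-* mice (right), in TPM (circles) and relative to the median of all genes tested (triangles), with 95% counting intervals as bars and dashed lines at 0.5 in either direction. Centring moves each gene by 0.53 in WT and 0.61 in *Cd300a-/-* neutrophils, after which *Il10ra* alone lies above 0 in both panels.

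The remaining receptor genes had subset ratios at or below the median of all genes tested. *Il6ra* was at 0.52 (0.43 to 0.61) in WT and 0.35 (0.28 to 0.43) in *Cd300a-/-* neutrophils, or -0.01 and -0.26 after centring. *Il4ra* was at 0.41 (0.35 to 0.48) in WT and 0.04 (-0.02 to 0.09) in *Cd300a-/-* neutrophils, or -0.11 and -0.58 after centring. The gp130 gene *Il6st* was at 0.37 (0.24 to 0.49) and 0.10 (-0.03 to 0.23), or -0.16 and -0.51 after centring. For each of these interleukin receptor genes the subset ratio was higher in WT than in *Cd300a-/-* neutrophils. *Ifngr1* was at 0.04 (-0.03 to 0.10) in WT and -0.02 (-0.08 to 0.04) in *Cd300a-/-* neutrophils, or -0.49 and -0.63 after centring. *Ifnar1* was at 0.45 (0.36 to 0.54) and 0.17 (0.09 to 0.26), or -0.07 and -0.44 after centring. Markers of other cells differed between the subsets in both genotypes. Of the 10 macrophage markers, 8 were higher and 1 was lower in WT SiglecF hi neutrophils after centring, and in *Cd300a-/-* neutrophils 6 were higher and 1 was lower, while all 11 granule and maturation genes and all 8 neutrophil markers were lower in both. Endothelial markers differed by genotype, with 7 of the 7 tested lower in WT SiglecF hi cells after centring (median -1.51) but 2 higher and 1 lower in *Cd300a-/-* SiglecF hi cells (median 0.10). Of the 6 fibroblast markers tested, 4 were higher in WT SiglecF hi cells after centring, whereas 0 were higher and 1 was lower in *Cd300a-/-* SiglecF hi cells. The part of all these markers in the subset ratios of the receptor genes was not tested.

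The receptors need partner chains, which were measured beside them. *Il10rb*, the shared chain of the IL-10 receptor, was at 156 TPM (WT) and 155 TPM (*Cd300a-/-*) in SiglecF lo cells, and 208 TPM (WT) and 212 TPM (*Cd300a-/-*) in SiglecF hi neutrophils, so that its genotype ratios, -0.01 and 0.03, were smaller than those of *Il10ra*. The TPM ratio of *Il10ra* to *Il10rb* accordingly was 0.647 (0.608 to 0.688) in WT and 0.792 (0.749 to 0.838) in *Cd300a-/-* SiglecF lo neutrophils, and 0.831 (0.800 to 0.864) in WT and 0.980 (0.943 to 1.02) in *Cd300a-/-* SiglecF hi neutrophils. *Ifngr2*, the signalling chain for interferon-γ, kept step with *Ifngr1*. The TPM ratio of *Ifngr1* to *Ifngr2* was 3.01 (2.83 to 3.21) in WT and 3.05 (2.89 to 3.22) in *Cd300a-/-* SiglecF lo neutrophils, and 2.86 (2.73 to 2.99) and 2.87 (2.75 to 3.01) in the SiglecF hi neutrophils, with intervals that overlap across all 4 libraries. For the type I interferon receptor, the TPM ratio of *Ifnar1* to *Ifnar2* was 0.733 (0.681 to 0.789) in WT SiglecF lo, 0.940 (0.879 to 1.00) in *Cd300a-/-* SiglecF lo, 0.874 (0.832 to 0.919) in WT SiglecF hi and 0.908 (0.861 to 0.957) in *Cd300a-/-* SiglecF hi neutrophils. WT SiglecF lo neutrophils thus had relatively the least *Ifnar1*. IL-4 uses *Il4ra* with the common gamma chain *Il2rg* or with *Il13ra1*. The TPM ratio of *Il4ra* to *Il2rg* was 1.31 (1.20 to 1.42) in WT SiglecF lo, 1.64 (1.51 to 1.77) in *Cd300a-/-* SiglecF lo, 1.35 (1.27 to 1.43) in WT SiglecF hi and 1.05 (0.994 to 1.11) in *Cd300a-/-* SiglecF hi neutrophils, higher in *Cd300a-/-* than in WT in SiglecF lo and lower in SiglecF hi neutrophils. That of *Il4ra* to *Il13ra1* was 0.665 (0.631 to 0.701), 0.822 (0.785 to 0.860), 1.22 (1.17 to 1.27) and 0.959 (0.921 to 0.999) in the same order, and had the same pattern. No gene model of the data overlapped one of the 10 receptor genes, but a gene model that overlaps *Il2rg* held 47 counts in *Cd300a-/-* SiglecF lo neutrophils and 0 in the other libraries, and one that overlaps *Il10rb* and *Ifnar2* held 0 counts throughout.

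Some receptor chains are also neighbours in the genome. On chromosome 16, *Ifnar2*, *Il10rb*, *Ifnar1* and *Ifngr2* follow each other within 192.8 kb, from 91169671 to 91362511. Of this cluster *Ifnar1* had the largest ratio of *Cd300a-/-* to WT in SiglecF lo neutrophils, 0.31, where *Ifngr2* had 0.21 (0.11 to 0.30), *Il10rb* had -0.01 and *Ifnar2* had -0.04.

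A list of 28 other cytokine receptor genes also held *Csf1r*, *Kit* and *Flt3*, whose products, unlike the chains above, have a kinase of their own. Of the 28, 10 were over the TPM limit, and their medians were -0.03 in SiglecF lo and 0.0029 in SiglecF hi cells for *Cd300a-/-* against WT. Among SiglecF lo cells, 0 of the 10 were higher and 1 was lower past 0.5, *Il11ra1* at -0.65 (-1.05 to -0.24), and in SiglecF hi neutrophils 0 passed in either direction. *Csf1r*, the M-CSF receptor gene and the most abundant of them, was at 318 TPM (WT) and 274.5 TPM (*Cd300a-/-*) in SiglecF lo cells, and 413 TPM (WT) and 434 TPM (*Cd300a-/-*) in SiglecF hi neutrophils. *Il3ra*, whose product pairs with both beta chains, was at 8.84 TPM (WT) and 7.88 TPM (*Cd300a-/-*) in SiglecF lo cells, and 19.6 TPM (WT) and 14.1 TPM (*Cd300a-/-*) in SiglecF hi neutrophils, so that unlike *Csf2rb2* it was not higher in *Cd300a-/-* neutrophils. *Il5ra*, the other partner of *Csf2rb*, was below 1 TPM in each library. Under the limit, the stem cell factor receptor gene *Kit* had 31 counts in WT SiglecF lo, 394 counts in *Cd300a-/-* SiglecF lo, 69 counts in WT SiglecF hi and 60 counts in *Cd300a-/-* SiglecF hi neutrophils, a ratio of 2.73 (2.43 to 3.03) in SiglecF lo neutrophils. The other 5 mast cell and basophil markers listed, *Cpa3* among them, had 0 counts in each library.

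The ligands of these receptors were mostly low in the sorted cells, and 4 of the 14 listed were over the limit. Of these 1 was higher (*Il10*, 1.04) and 1 was lower (*Il6*, -1.86) in *Cd300a-/-* SiglecF lo cells, and 0 passed 0.5 in SiglecF hi cells, with medians of 0.09 and -0.14. *Csf3*, which encodes G-CSF, had 21 counts in WT SiglecF lo, 19 counts in *Cd300a-/-* SiglecF lo, 30 counts in WT SiglecF hi and 32 counts in *Cd300a-/-* SiglecF hi neutrophils. *Csf2*, which encodes GM-CSF, had 12 counts in WT SiglecF lo, 0 counts in *Cd300a-/-* SiglecF lo, 8 counts in WT SiglecF hi and 0 counts in *Cd300a-/-* SiglecF hi cells. Both levels are low beside the receptor genes, and *Csf2* was counted in the WT libraries only. *Il4*, *Il13* and *Il3* had 0 counts in each library, *Ifng* had 18 counts in *Cd300a-/-* SiglecF hi neutrophils and 0 elsewhere, and *Ifnb1* had 4 counts in *Cd300a-/-* SiglecF lo neutrophils and 0 elsewhere. *Il6* was at 56.8 TPM (WT) and 15.0 TPM (*Cd300a-/-*) in SiglecF lo cells, and 45.6 TPM (WT) and 33.2 TPM (*Cd300a-/-*) in SiglecF hi cells. Among these libraries it was thus lowest in *Cd300a-/-* SiglecF lo cells. The paper reports from PCR that *Il6* was comparable between the genotypes and higher in SiglecF hi than in SiglecF lo neutrophils. Here the order of the subsets in TPM was the reverse in WT and the same in *Cd300a-/-* cells. With 1 library per group, the lower *Il6* of *Cd300a-/-* SiglecF lo cells has no replicate check. *Il10* was at 4.01 TPM (WT) and 9.29 TPM (*Cd300a-/-*) in SiglecF lo cells, from 27 and 69 counts, and 25.1 TPM (WT) and 18.7 TPM (*Cd300a-/-*) in SiglecF hi neutrophils. It was thus higher in both SiglecF hi libraries in TPM, like its receptor gene *Il10ra*. This holds for most genes, since the TPM ratio between the subsets was above 0 for 80.1% (WT) and 80.9% (*Cd300a-/-*) of all genes tested. The most abundant ligand gene was *Csf1*, at 320.5 TPM and 356 TPM in WT and *Cd300a-/-* SiglecF lo and 632 TPM and 693 TPM in WT and *Cd300a-/-* SiglecF hi neutrophils.

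Downstream of the receptors, 14 of 18 genes for JAKs, STATs and their brakes were over the limit. In *Cd300a-/-* SiglecF lo neutrophils 4 were higher, beside 16.4% of all genes tested. These were the kinase genes *Jak2* at 0.71 (0.62 to 0.80) and *Jak3* at 0.78 (0.59 to 0.96) and the genes *Stat3* at 0.51 (0.44 to 0.57) and *Stat4* at 0.80 (0.63 to 0.98). The threshold of 0.5 lay inside the interval of *Stat3*. *Stat2* was lower, at -0.58 (-0.76 to -0.41). JAK2 is the kinase bound by the GM-CSF beta chain, and its gene was at 58.5 TPM (WT) and 96.1 TPM (*Cd300a-/-*) in SiglecF lo cells, and 102 TPM (WT) and 136 TPM (*Cd300a-/-*) in SiglecF hi neutrophils. The median of the 14 was 0.35 in SiglecF lo and 0.19 in SiglecF hi cells, where 0 passed 0.5. *Socs3*, which encodes a brake on the G-CSF receptor and gp130, was the most abundant of the list by mean TPM over the libraries. It reached 307 TPM (WT) and 309.5 TPM (*Cd300a-/-*) among SiglecF lo cells, and 509 TPM (WT) and 585 TPM (*Cd300a-/-*) among SiglecF hi cells. In both SiglecF lo libraries *Ptpn6* of the same list was above *Socs3*, at 383.5 TPM (WT) and 431 TPM (*Cd300a-/-*). Of the genes for receptor shedding and turnover, 3 of 6 were tested and 0 passed 0.5 between genotypes, with medians of 0.16 and 0.06. *Adam17*, whose product sheds the IL-6 receptor, had ratios of 0.43 (0.32 to 0.54) in SiglecF lo and 0.06 (-0.01 to 0.13) in SiglecF hi cells. *Adam10*, the most abundant by mean TPM though not in *Cd300a-/-* SiglecF lo neutrophils, had 0.06 and 0.24.

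Genes known to be induced behind these receptors did not move as one. Of the genes induced through STAT5, the route of GM-CSF, 4 of 6 were tested and 0 passed 0.5 in either subset, with medians of 0.18 (SiglecF lo) and 0.29 (SiglecF hi) and *Mcl1* as the most abundant, at 0.27 and 0.28. *Cish*, a STAT5-induced feedback gene under the limit that is singled out after its values were seen, had 135 counts in WT SiglecF lo, 26 counts in *Cd300a-/-* SiglecF lo, 264 counts in WT SiglecF hi and 315 counts in *Cd300a-/-* SiglecF hi neutrophils. It was thus lowest in *Cd300a-/-* SiglecF lo neutrophils, where the GM-CSF receptor genes were highest. Of 8 genes induced through STAT3, 1 was higher in *Cd300a-/-* SiglecF lo neutrophils (*Sbno2*, 0.52) and 1 in *Cd300a-/-* SiglecF hi neutrophils (*Il1rn*, 0.54, which no longer passed after centring), with medians of 0.03 and 0.25, and *Junb*, the most abundant, was at -0.20 and 0.14. Of the genes induced through STAT6, *Mrc1* was higher in *Cd300a-/-* SiglecF lo neutrophils (0.66), while *Chil3*, the most abundant of them, was at -0.0047, and none passed in SiglecF hi neutrophils. Of the genes induced by interferon-γ 5 of 8 were tested, and *Cxcl10* (-1.23) and *Gbp2* (-0.60) were lower in *Cd300a-/-* SiglecF lo neutrophils, with a median of -0.23, while 0 passed in SiglecF hi neutrophils and *Icam1*, the most abundant, was at 0.18 and 0.42. Of the genes induced by type I interferon 9 of 10 were tested and 6 were lower in *Cd300a-/-* SiglecF lo neutrophils, with a median of -0.76, among them *Ifit1* (-1.46), *Ifit2* (-1.06) and the most abundant, *Isg15* (-0.97). In SiglecF hi neutrophils the median was 0.16, and 1 gene was higher, *Ifit2* (0.55).

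The remaining marker lists gave the following counts for *Cd300a-/-* against WT. In SiglecF lo neutrophils 1 of 10 macrophage markers was higher (*Mrc1*), 1 of the 6 fibroblast markers tested was higher (*Postn*, 0.81), 1 of the 3 cardiomyocyte markers tested was lower (*Actc1*, -0.86), and *Ear2*, the eosinophil marker tested, was lower (-0.98). In SiglecF hi neutrophils 1 macrophage marker was higher (*Lyve1*, 0.80), 3 fibroblast markers were lower (*Col1a1*, *Col1a2* and *Col3a1*, the lowest at -0.69), 2 endothelial markers were higher and 1 was lower (*Cldn5*, -1.03), and 1 cardiomyocyte marker was higher (*Myl2*, 0.71). Fibroblast markers, led by *Dcn*, summed to 966.5 TPM (WT) and 986 TPM (*Cd300a-/-*) in SiglecF lo cells, and 2096 TPM (WT) and 1482 TPM (*Cd300a-/-*) in SiglecF hi neutrophils. Cardiomyocyte markers summed to between 28.8 and 75.05 TPM and lymphocyte markers, none of them over the limit and *Cd3d* the most abundant on average, to between 6.98 and 14.2 TPM. Of the other sorting markers, *Itgam* was higher in *Cd300a-/-* SiglecF lo neutrophils (0.58) and *Ptprc* was at 0.17.

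The genes most like the leading chain of each group were sought by the distance between profiles of log2(TPM + 1) over the 4 libraries, each centred on its own mean. *Sun2*, whose product lies in the nuclear envelope, was closest to *Csf3r*, at a distance of 0.0367. It was at 191 TPM (WT) and 236 TPM (*Cd300a-/-*) in SiglecF lo cells, and 139 TPM (WT) and 147.6 TPM (*Cd300a-/-*) in SiglecF hi neutrophils, the same order of libraries as *Csf3r*. Closest to *Il10ra* were *Slco3a1*, *Klf10* and *Lactb*, at 0.0298, 0.0327 and 0.0342. *Klf10* was at 95.3 TPM (WT) and 113 TPM (*Cd300a-/-*) in SiglecF lo cells, and 161 TPM (WT) and 197 TPM (*Cd300a-/-*) in SiglecF hi neutrophils, rising through the libraries as *Il10ra* did. Closest to *Ifngr1* were *Zfp51*, *Hk1* and *Tlr4*, at 0.0396, 0.0577 and 0.0654. With 4 libraries such a likeness describes only these profiles.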

How the data were processed

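The members and the 20 gene lists were chosen with earlier results of these data known. RNA from sorted cells was made into libraries with poly(A) selection and the NEBNext Ultra II kit and sequenced as paired ends for 75 cycles. With CLC Genomics Workbench 20.0 the authors calculated TPM. The submitters' processing notes name GRCm39. Aligner settings and the annotation release are not given in the sources used here. The count of a gene as deposited is a whole number without normalization, and the deposited TPM is normalized for gene length, with an equal sum for all libraries. The deposited RPKM was not used. The deposited signal named CPM equals the CPM of the counts divided by the TMM factor of each library.

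Ratios are log2((TPM + 1) ratio) for genes with a mean TPM over 10, called past 0.5. The 95% counting intervals use the Poisson error of the counts. Alternatives were a pseudocount of 0.1, a mean TPM over 1, a TPM over 10 in both libraries, no filter, a threshold of 1, TMM-scaled CPM, median-of-ratios CPM and centring. edgeR 4.0.16 in R 4.3.3 gave the TMM factors only. Python 3.11.15, numpy 2.4.6, pandas 2.3.3, scipy 1.17.1 and matplotlib 3.10.9 were used. Calculations were tested on simulated counts.

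The genes named are the 10 receptor genes, their partner chains and ligands, the sorting markers, the most abundant gene of each list, the 2 largest rises and 2 largest falls of a list past 0.5 and the nearest profiles of the leading chain of each group. Genes that complete a short count and markers at 0 were named too, and *Cish*, *Kit* and *Adam17* were chosen after their values were seen. Some genes that this rule selects are not reported here. Promoters are those of RefSeq.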

Additional observations from a re-analysis of the deposited data

Results flagged for a closer look

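Some of the pathway genes tested had a ratio of *Cd300a-/-* to WT above 0 in one subset and below 0 in the other, with counting intervals that left out 0 in both, while 0 of the 10 receptor genes did. Given below is the log2 ratio in SiglecF lo minus that in SiglecF hi neutrophils, with the SiglecF lo and SiglecF hi ratios in brackets. The difference was not tested, since each group has 1 library. Among other receptor genes, *Csf1r* by -0.28 (-0.21 and 0.07) and *Crlf2* by 0.34 (0.20 and -0.14) differed. Of the genes for interferon signalling and interferon-γ response, *Stat2* by -0.91 (-0.58 and 0.33), *Irf1* by -0.42 (-0.23 and 0.19) and *Cxcl10* by -1.47 (-1.23 and 0.25) differed. Type I interferon-induced genes were *Ifit1* by -1.65 (-1.46 and 0.19), *Ifit2* by -1.60 (-1.06 and 0.55), *Ifit3* by -1.19 (-0.96 and 0.23), *Irf7* by -0.56 (-0.09 and 0.47), *Usp18* by -0.40 (-0.23 and 0.16) and *Cmpk2* by -0.87 (-0.76 and 0.11). STAT3-induced genes were *Junb* by -0.34 (-0.20 and 0.14) and *Il1rn* by -0.58 (-0.05 and 0.54). The ligand gene *Il10* differed by 1.44 (1.04 and -0.41), and the STAT6-induced gene *Mrc1* by 0.73 (0.66 and -0.07). The largest of these differences were those of *Ifit1* and *Ifit2*.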

How the results depend on the processing

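Between genotypes, the ratios of the receptor genes kept their sign under all 7 alternatives except *Il6st* in SiglecF lo neutrophils, between -0.01 and 0.05, and *Ifnar1* in SiglecF hi neutrophils, between -0.0041 and 0.03. Of these alternatives, the filters on low values could not change a ratio, since every receptor gene was above 10 TPM in each library. *Il6ra* in SiglecF lo neutrophils ranged from 0.49 to 0.56 and passed 0.5 after centring, with TMM-scaled or median-of-ratios CPM and, just past it, with a pseudocount of 0.1, so that 4 of the 10 passed under each of these. With a log2 threshold of 1 and TPM, 0 of the 10 passed in SiglecF lo neutrophils between genotypes, and 0 in either genotype between subsets. The subset ratios depended on the scaling, which by construction removes the shift of the median of all genes. In WT, the median of the 10, 0.36 in TPM, was -0.16 with TMM-scaled CPM, -0.23 with median-of-ratios CPM and -0.17 after centring, and *Il6ra*, past 0.5 in TPM, was at -0.01, -0.07 and -0.01. In *Cd300a-/-* neutrophils the median of the 10, 0.01 in TPM, was -0.57, -0.66 and -0.61, and the genes past 0.5 in either direction, 2 in TPM, were 6, 7 and 7. By construction, the filters on low values left the counts of receptor genes past 0.5 in SiglecF lo neutrophils between genotypes at 3. *Il6st*, with 610 to 1371 counts, had the widest intervals. Variation between mice cannot be estimated from these libraries.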
